A study of Canis lupus familiaris with 23 samples.

Results

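The genes described here encode the proteins of the cytosolic ribosome. They were chosen by name, as entries called RPL or RPS with a number (with endings such as A, X or L) or called RPSA, RPLP0, RPLP1 or RPLP2, while provisional locus names were left out. The rule found 79 of 21416 entries that name a gene. These carry 78 symbols, 46 of the large and 32 of the small subunit, because RPL18 is listed under 2 entries. All 79 were listed for every library, and 78 passed the filter on low counts. The exception was RPL3L.

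The ribosome makes all proteins of the cell, and its large and small subunits each join ribosomal RNA with a set of proteins needed in about equal amounts. Messenger RNAs of ribosomal proteins are abundant and carry a 5′ terminal oligopyrimidine (TOP) tract through which the mTOR pathway adjusts their translation together. Growing epithelial cells such as basal keratinocytes need many ribosomes, and several ribosomal proteins also act outside the ribosome, among them RPL5 and RPL11, which bind MDM2.

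The study profiled dog skin, its parts and epidermal organoids by CEL-seq2, which reads the 3′ end of each transcript, in 23 bulk libraries of 12 groups. The tissues were whole skin, interfollicular epidermis (the surface epidermis between follicles) and hair follicles in a mixture of anagen (growing) and telogen (resting) phases, with 2 libraries each. Day 7 was the time of collection for every organoid, and passages 0 to 1 are called early and 3 to 6 later. Organoids from follicles grew in expansion medium, either with an inhibitor of Tgf-beta (3 libraries early, 2 later) or without one (2 early, 2 later). Interfollicular organoids always had the inhibitor and are represented by a single early and a single later library. Later follicle organoids in differentiation medium had 2 libraries in the full medium, 2 with Noggin and R-Spondin-1 left out, and 2 that lacked Forskolin as well. Noggin is a BMP antagonist, R-Spondin-1 an amplifier of Wnt signals, and Forskolin an activator of adenylyl cyclase. The labels do not say whether replicates came from separate dogs or cultures, so p-values measure the spread between libraries, which may be technical.

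Total counts per library ran from 86301 to 4822410, lowest in the second interfollicular epidermis library. Of the hair shaft markers, 2 of 5 were listed (KRT32 and KRT74), and they summed to 1571 and 2040 CPM (counts scaled to a common library size by TMM) in follicles, 892 and 1340 in whole skin and 15.6 and 112 in interfollicular epidermis. The follicle organoids in expansion medium held 9.43 to 23.04 CPM, the interfollicular organoids 52.4 CPM early and 260.9 CPM later, and both genes had 0 counts in the differentiation libraries. Suprabasal keratinocyte markers summed to 12964 and 17262 CPM in interfollicular epidermis and 1518 and 1951 in follicles. The 5 fibroblast markers summed to 4297 and 7216 CPM in follicles and to 48.3 to 489 in the follicle organoids in expansion medium. Fewer cells of a type and less RNA per cell cannot be told apart in bulk libraries. The differentiation libraries were deposited with another list of entries than the other 17, so the medium and the file processing cannot be told apart in any comparison between them. The later interfollicular organoid library also stood apart from the rest, and counts of calls that rest on it are given with and without it.

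The summed members held 4.91 to 11.93% of the counts on gene entries, with a median of 8.05% over the 23 libraries. Interfollicular epidermis held the largest shares, 11.93 and 10.02%. Follicles held 8.55 and 6.59%, and whole skin 7.44 and 8.15%. No other library reached the range of the interfollicular epidermis. The 9 follicle organoid libraries in expansion medium lay between 6.72 and 9.69%. Interfollicular organoids held 8.38% early and 7.52% later, below both libraries of their tissue. Differentiation medium gave 7.09 and 9.32%, removal of Noggin and R-Spondin-1 gave 7.87 and 9.55%, and removal of Forskolin as well gave 7.96 and 4.91%. The libraries of the last group were further apart than those of any other group, and the second held the lowest share of all.

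**Figure D1:**
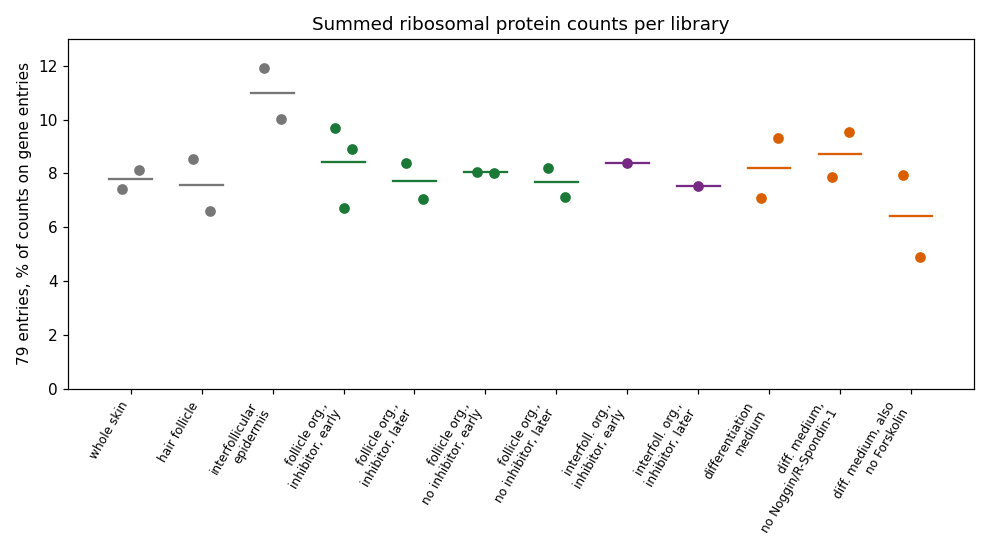
Share of counts on gene entries held by the 79 ribosomal protein entries (vertical axis, %) in each of 23 libraries (points), by group, with a line at each group's mean. The 2 interfollicular epidermis libraries, at 11.93 and 10.02%, lie above all others.

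On the log2 scale, the mean share was 0.49 higher in interfollicular epidermis than in whole skin (pooled SD of log2 values within groups 0.14) and 0.54 lower in follicles than in interfollicular epidermis (pooled SD 0.23). It was 0.47 lower in interfollicular organoids than in their tissue. The SD here, 0.18, is that of the 2 tissue libraries alone, since each organoid group holds 1 library. With scaling to library totals, the median log2 change between these organoids and their tissue was -0.71 for members and -0.70 for all genes. For interfollicular epidermis against whole skin these medians were 0.43 and 0.03, and for follicles against interfollicular epidermis -0.51 and -0.10. Differences of 0.07 between follicle organoids and follicles, 0.04 with against without inhibitor and 0.10 between later and early passage were within the pooled SDs of 0.20, 0.18 and 0.18. Mitochondrially encoded genes, which share the denominator, held 5.35 to 26.9% of counts. Without them the members held 13.77 and 11.21% in interfollicular epidermis, 8.41 to 10.82% in the 9 follicle organoid libraries and 5.34 to 10.67% in the differentiation libraries. These sums are a description with no test.

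The balance of the subunits differed between kinds of library. In each of the 9 follicle organoid libraries in expansion medium, large-subunit genes held 1.13 to 1.20 times the counts of small-subunit genes. The 6 tissue libraries lay between 1.23 and 1.34, and the 6 differentiation libraries between 1.32 and 1.45. The follicle organoids in expansion medium do not overlap with either, while tissue and differentiation medium overlap. Interfollicular organoids stood at 1.23 early and 1.43 later. In the later library RPL11, a large-subunit gene, alone held 15.6% of the ribosomal protein counts. The ratio of 1.43 thus rests in part on 1 gene.

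**Figure D2:**
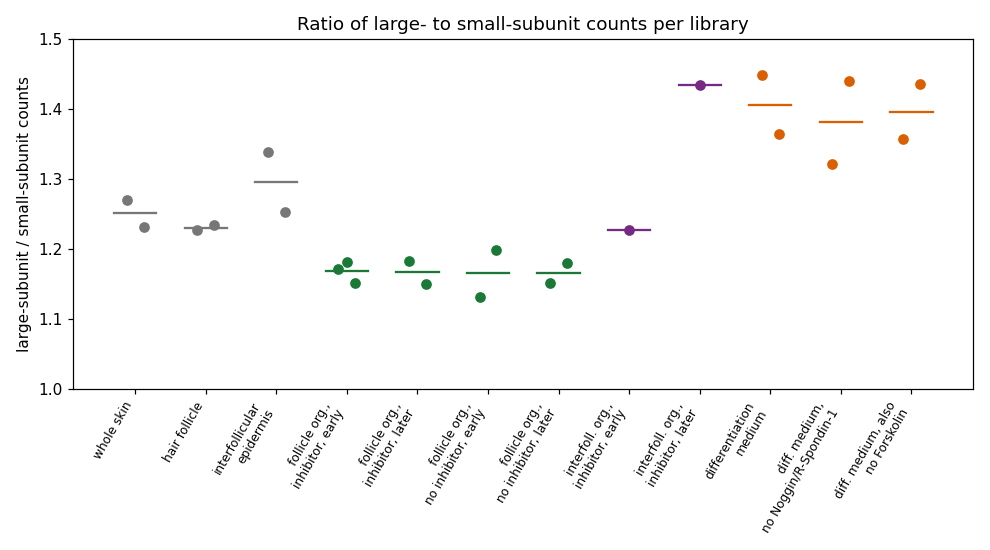
Counts of the large-subunit genes over those of the small-subunit genes (vertical axis, a ratio, from 1 to 1.5) in each library (points), by group, with a line at the group mean. The 9 follicle organoid libraries in expansion medium lie at 1.13 to 1.20 and the 6 differentiation libraries at 1.32 to 1.45.

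Single members were tested across all genes with edgeR's quasi-likelihood test on TMM-scaled counts, and a gene was called at a Benjamini-Hochberg adjusted p under 0.05. Fold changes are log2 values with their standard errors. Members were called in 4 of the 11 comparisons. The comparisons share libraries, so their values are not independent of each other, and members that share reads with near-identical copies have uncertain separate values.

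**Figure D3:**
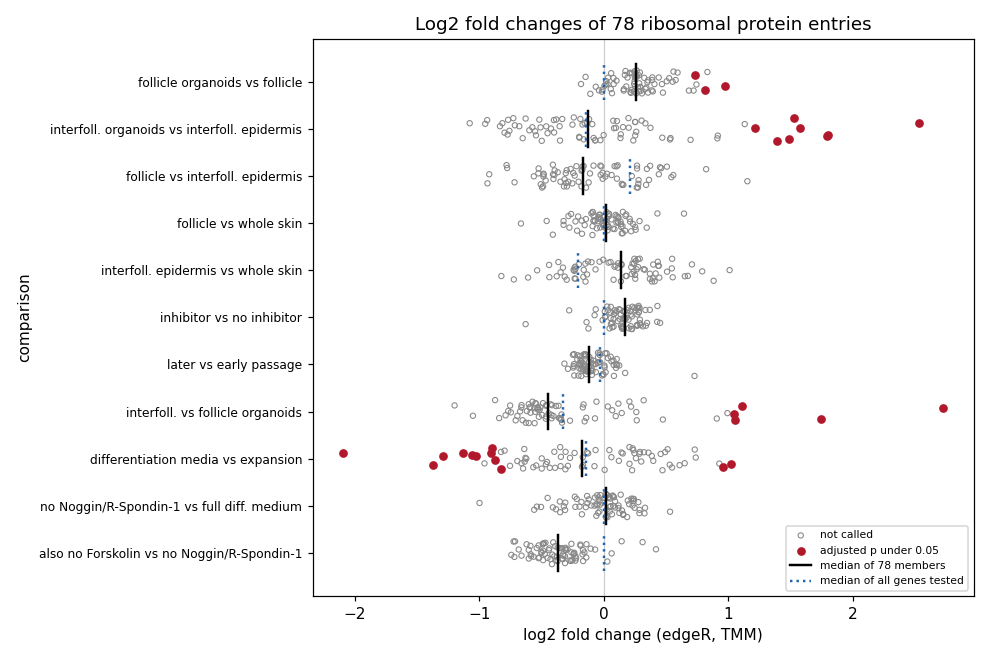
Log2 fold change (horizontal axis, edgeR) of the 78 tested entries in each of 11 comparisons (rows), with filled points for adjusted p under 0.05. The black line is the members' median and the dotted blue line the median of all genes tested. Called members appear in 4 rows, and in differentiation against expansion medium 10 of the 12 called members are lower.

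The differentiation media gave the most called members. Against later follicle organoids in expansion medium without inhibitor, 10 members were lower and 2 higher, so 12 of 78 were called, where 14.5% of 9732 genes were called. Lower calls made up 10.2% of all genes and higher calls 4.39%. The members' median log2 change was -0.17, that of all genes -0.14. The 2 sets of files and the media change together here, as said above.

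RPL27, a large-subunit protein, showed the largest fall. Its level was 267.6 and 249.7 CPM in expansion medium. In differentiation medium it was 83.7 and 62.3 CPM, without Noggin and R-Spondin-1 56.0 and 62.4 CPM, and without Forskolin as well 59.96 and 38.5 CPM. All 6 differentiation libraries lay below every other library, of which the lowest, in interfollicular epidermis, was at 124.6 CPM. The log2 change was -2.10 ± 0.27 (SE, adjusted p = 4.6e-05, edgeR). The counts behind it were 9 to 50 in the differentiation libraries and 940 and 592 in expansion medium.

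RPL4, which lies near the peptide exit tunnel of the large subunit, was at 609.2 and 598.1 CPM in expansion medium. In differentiation medium it was at 254.4 and 387.6 CPM, without Noggin and R-Spondin-1 at 238.5 and 212.1 CPM, and without Forskolin as well at 202.9 and 149.9 CPM. The 2 groups of libraries do not overlap. The log2 change was -1.37 ± 0.25 (adjusted p = 0.001026, edgeR). RPL27 and RPL4 were called in all 17 alternative fits.

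RPL23, a large-subunit protein that also binds MDM2, was at 943.2 and 983.7 CPM in expansion medium and at 257.0 to 519.2 CPM, median 483.8, in the 6 differentiation libraries. Its log2 change was -1.13 ± 0.30 (adjusted p = 0.0171, edgeR). Other called falls included RPL9 (-1.06), RPS25 (-1.02), RPS2 (-0.91), RPL6 (-0.90), RPL26 (-0.87) and RPL38 (-0.82). Of these, RPL26 was named by rule and the rest after their values were seen. RPL9 overlapped with expansion medium, since its highest differentiation library, 616.1 CPM, lay above the lower expansion library, 613.8 CPM.

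RPL3, a protein near the peptidyl transferase centre, rose. It was at 1954 and 1686 CPM in expansion medium. Differentiation medium gave 4683 and 5261 CPM, 3743 and 3879 CPM came without Noggin and R-Spondin-1, and 3422 and 1893 CPM without Forskolin as well. The last library lay between the 2 expansion libraries, and the other 5 lay above both. The log2 change was 1.02 ± 0.31 (adjusted p = 0.0313, edgeR). RPS21, a small-subunit protein, was at 246.0 and 188.1 CPM in expansion medium and at 265.6 to 630.2 CPM, median 390.8, in the 6 differentiation libraries, which do not overlap. edgeR gave it a log2 change of 0.95 ± 0.31 (adjusted p = 0.0431).

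Same-numbered libraries of the differentiation groups deviated together (correlations of 0.55 to 0.70), and less so with those of the expansion group (0.11 to 0.22). With the replicate number as a block, 0 members were higher and 7 lower. The adjusted p of RPL3 was then 0.0547 and that of RPS21 0.0668. The count was 2, both lower (RPL27 and RPL4), without either expansion library, the first or the second, and also in a fit of the 4 groups alone. Without the second library of the medium that lacks Noggin and R-Spondin-1, 1 member was higher and 6 lower. With DESeq2's size factors the split was 3 higher and 6 lower, by DESeq2's test 9 and 10, and with no filter on low counts 0 and 10.

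Against all 17 other libraries, and not only the expansion group of that comparison, 7 of 78 members (8.97%) had all 6 differentiation libraries below every other library, where 2.38% of all tested genes did. They included RPL4, RPL19, RPL23, RPL27, RPS6 and RPS25. None of the 78 lay above all others, where 1.29% of genes did. RPS6, the S6 kinase substrate, was at 616.8 to 1419 CPM, median 1186, in the 6 libraries and at 1586 to 2990 CPM in the others. In the tested comparison its log2 change was -0.80 ± 0.30 (adjusted p = 0.0785, edgeR), which missed the threshold. Without the first library of the medium that also lacks Forskolin it was -1.04. That fit leaves this medium only its second library, which had the lowest RPS6 level of all, 616.8 CPM.

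Interfollicular organoids gave the largest rises, and these rested on 1 library. Against interfollicular epidermis, 8 members were higher and 0 lower. Higher calls made up 6.73% of 9888 genes and lower calls 4.5%, together 11.2%. The members' median log2 change was -0.13 and that of all genes -0.14. Without the later interfollicular organoid library, 0 members were called. P-values here assume that the single organoid libraries vary like the other groups.

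RPL36, a large-subunit protein, was at 38.9 and 15.6 CPM in interfollicular epidermis, at 66.0 CPM in early and at 497.4 CPM in later interfollicular organoids. The counts behind these were 16, 2, 34 and 82. Both organoid libraries lay above the tissue, and the later one far above. The log2 change was 2.53 ± 0.50 (adjusted p = 0.00209, edgeR), and 1.07 (adjusted p = 0.267) without the later library. RPL27 was at 214.0 and 124.6 CPM in the tissue, 322.4 CPM early and 1153 CPM later, with a log2 change of 1.80 ± 0.37 (adjusted p = 0.00272, edgeR). It was 0.88 (adjusted p = 0.200) without the later library. RPL27 was also the member with the largest fall in the differentiation media.

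RPS15, a small-subunit protein of the decoding region, was at 228.6 and 280.4 CPM in the tissue, 419.5 CPM early and 1832 CPM later. The log2 change of RPS15 was 1.80 ± 0.38 (adjusted p = 0.00354, edgeR), and 0.73 (adjusted p = 0.314) without the later library. RPL11 was at 2568 and 1729 CPM in the tissue, 2651 CPM early and 15621 CPM later. Its log2 change was 1.58 ± 0.38 (adjusted p = 0.00936, edgeR), and 0.30 (adjusted p = 0.712) without the later library. The other 4 called, of which RPL22L1 was named by rule and the rest after their values were seen, were RPL22L1 (1.53), RPL14 (1.49), RPS13 (1.39) and RPL15 (1.21). With scaling to library totals the median of all genes moved to -0.70, and the split became 3 higher and 17 lower. With DESeq2's test it was 7 and 6.

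Without the first interfollicular epidermis library 4 members were called, all higher, and without the second 4 were higher and 1 lower. Markers of other cells moved in the same comparison. The 6 suprabasal markers summed to 12964 and 17262 CPM in the tissue, 415.7 CPM in the early and 1620 CPM in the later organoids. Fibroblast markers summed to 1254 and 3616 CPM in the tissue, 130.1 CPM in the early and 685.5 CPM in the later organoids. Hair shaft markers summed to 15.6 and 112 CPM in the tissue, 52.4 CPM in the early and 260.9 CPM in the later organoids, the library on which the calls rest. The part of these 3 lists in the members' values was not tested.

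Between interfollicular and follicle organoids with the inhibitor, the same 2 interfollicular libraries were compared with 5 follicle libraries. Here 5 members were higher and 0 lower, where 5.85% of all genes were higher, 0.516% lower and 6.36% called. The members' median log2 change was -0.45 and that of all genes -0.32, so most members lay below 0 while the called ones lay above. RPL36 was at 20.3 to 30.2 CPM in the 5 follicle libraries, below both interfollicular ones, with a log2 change of 2.73 ± 0.34 (adjusted p = 8.2e-06, edgeR). RPL11 was at 1483, 1632, 1921, 2213 and 2620 CPM in the follicle libraries, so that the early interfollicular library, at 2651 CPM, lay just above them. Its log2 change was 1.75 ± 0.29 (adjusted p = 0.000315, edgeR).

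RPL27 had a log2 change of 1.11 (adjusted p = 0.0154, edgeR) and RPS15 one of 1.05 (adjusted p = 0.0290, edgeR) in this comparison. For both, the early interfollicular library lay inside the range of the follicle libraries, which was 236.8 to 383.0 CPM for RPL27 and 296.9 to 526.6 CPM for RPS15. Without the later library, 0 members were called, and the log2 changes fell to 1.28 for RPL36, 0.48 for RPL11, 0.19 for RPL27 and -0.01 for RPS15. The fifth member called was RPL15 (1.05). Without the first later follicle library with inhibitor 3 were called, and without the second 2.

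The later interfollicular organoid library had 222051 counts in all. It was singled out after its values were seen, so what follows is a description. RPL11 took 15.6% of its ribosomal protein counts, against 1.92 to 3.45% in the other 22 libraries. Among the 17 tissue and expansion libraries it was the highest for 14 of 78 members (17.9%, against 13.5% of all tested genes) and the lowest for 24 (30.8%, against 14.7%). Those at their lowest included RPL5, RPL7A, RPS3A and the stalk proteins RPLP0, RPLP1 and RPLP2. RPL27 stood at 4.66 times the median of the other 16.

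**Figure D4:**
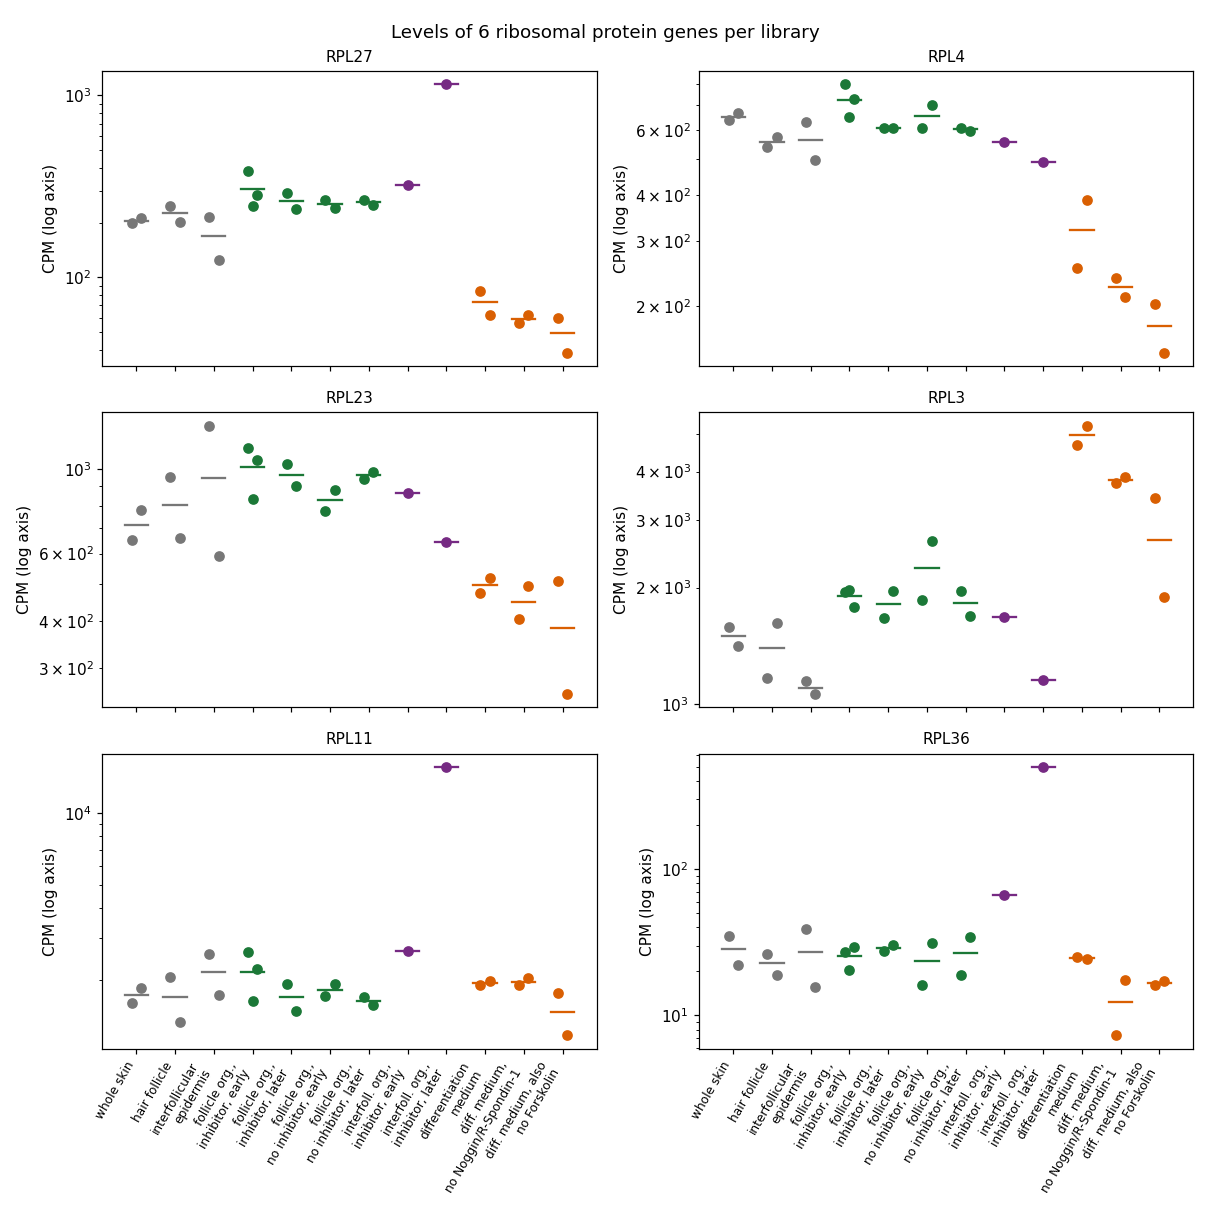
Level (vertical axes, CPM on a log axis) of RPL27, RPL4, RPL23, RPL3, RPL11 and RPL36 in each library (points), by group, with a line at each group mean. The differentiation libraries are the lowest for RPL27, RPL4 and RPL23, and the later interfollicular organoid library stands at 15621 CPM for RPL11 and 497.4 CPM for RPL36.

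RPL29, RPL27A and RPL38 were higher in follicle organoids than in follicle tissue. Against the 2 follicle libraries, 3 members were higher and 0 lower in the 9 libraries in expansion medium, where 28.0% of all genes were called, 9.01% higher and 19.0% lower. The members' median was 0.26 and that of all genes 0.00, and 71 of 78 members had a positive change, against 50.1% of all genes. With DESeq2's size factors or library totals the median of all genes moved to -0.17 and -0.19. Relative to it, the members stood 0.26 higher in the main scaling, and 0.25 higher in both others.

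RPL29, a large-subunit protein, was at 768.4 and 717.2 CPM in follicles and at 1269 to 1766 CPM, median 1430, in the organoids. The 9 organoid libraries all lay above the tissue. RPL29 had a log2 change of 0.97 ± 0.32 (adjusted p = 0.0260, edgeR). RPL27A was at 285.7 and 210.3 CPM in follicles and 322.4 to 559.2 CPM, median 421.1, in organoids, again without overlap, with a log2 change of 0.81 ± 0.29 (adjusted p = 0.0445, edgeR). RPL38, a protein known for its part in the translation of Hox messages, was at 54.2 and 71.6 CPM in follicles and rose by 0.73 ± 0.27 (adjusted p = 0.0459, edgeR).

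None of the 3 was called without either follicle library, with DESeq2's size factors or with library totals. With the first follicle library left out the members' median was 0.47, and with the second left out 0.10. The count was 1 without any of 4 organoid libraries: the first later one with inhibitor, the third early one with inhibitor, the second early one without it or the first later one without it. The hair shaft and fibroblast markers given above moved with this comparison, and their part in it was not tested.

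No member was called by edgeR in the other 7 comparisons, whose values here are from the fit without the replicate block. Between follicles and interfollicular epidermis 2.79% of all genes were called (2.05% higher in follicles, 0.738% lower). Interfollicular epidermis against whole skin gave 1.56% (0.162% higher, 1.4% lower). With against without inhibitor it was 2.68% (1.92% higher, 0.758% lower), and between passages 0.354% (0.172% higher, 0.182% lower). The share was 0.0% between follicles and whole skin, between the media with and without Noggin and R-Spondin-1, and for the loss of Forskolin. At an unadjusted p under 0.05 there were 2, 2, 1, 1, 0, 0 and 0 of 78 members, in the same order. Of all genes, 16.1, 13.2, 14.2, 7.19, 1.46, 2.67 and 3.37% passed that threshold, each a larger share than that of the members. DESeq2's test called 1 member between interfollicular epidermis and whole skin and 0 in each of the other 6.

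The member nearest to the threshold between passages was RPL22L1, with a log2 change of 0.73 ± 0.23 (adjusted p = 0.314, edgeR). It was also nearest in the inhibitor comparison, at -0.63 ± 0.23 (adjusted p = 0.169, edgeR). With the inhibitor it stood at 26.4, 35.4 and 26.0 CPM early and 48.3 and 59.4 CPM later, and without it at 45.8 and 53.7 CPM early and 58.6 and 91.5 CPM later. Between interfollicular epidermis and whole skin the nearest was RPL26 (1.01 ± 0.38, adjusted p = 0.241, edgeR).

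With the inhibitor, 71 of 78 members lay above 0, against 50.1% of all genes. The members' median was 0.17 against 0.00 for all genes, and without the first early library with inhibitor it was 0.07. At later passage 60 of 78 members lay below 0 and 23.1% above it, against 46.7% of all genes above 0. The members' median was -0.12, against -0.03 for all genes. Without that same first early library it was -0.02. Interfollicular epidermis stood above whole skin by a median of 0.14, against -0.20 for all genes, and follicles below interfollicular epidermis by -0.17, against 0.21 for all genes.

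The loss of Forskolin moved the members by a median of -0.36, against 0.00 for all genes, in the fit without the replicate block. Of 78 members 73 lay below 0 and 6.41% above it, against 46.3% of all genes above 0. The second library of that medium carried this, since the median was -0.80 without the first and 0.00 without the second. That second library held 237864 counts, and 4.91% of its gene counts fell on the members.

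Members with known roles outside the ribosome or at its stalk came next. RPSA, the laminin receptor precursor and small-subunit protein, had group means of 158.6 to 337.5 CPM, lowest in interfollicular epidermis and highest in early follicle organoids with inhibitor. RPS27A, which is made as a fusion with ubiquitin, had group means of 1490 to 2480 CPM and log2 changes of 0.16, -0.08 and 0.26 in follicle organoids, interfollicular organoids and differentiation media (adjusted p = 0.725, 0.926 and 0.599, edgeR). RPL5, which carries the 5S RNA with RPL11, was at 957.5 and 1027 CPM in later follicle organoids without inhibitor and at 295.5 to 754.5 CPM in the 6 differentiation libraries, without overlap. Its log2 change was -0.83 ± 0.30 (adjusted p = 0.0699, edgeR). Without the first library of the medium that also lacks Forskolin the change was -1.06. That fit leaves this medium only its second library, which had the lowest RPL5 level of all, 295.5 CPM. RPL11, the partner of RPL5, had a log2 change of 0.12 in the same comparison (adjusted p = 0.822, edgeR).

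The stalk proteins RPLP0, RPLP1 and RPLP2 recruit elongation factors to the large subunit. RPLP0 had group means of 782.6 to 1577 CPM, RPLP1 of 667.3 to 1262 and RPLP2 of 188.1 to 456.6, each lowest in the later interfollicular organoids. Their log2 changes in the differentiation media were 0.01, 0.55 and 0.30, and none was called by edgeR (adjusted p = 1.00, 0.206 and 0.490). DESeq2's test called RPLP1 there, at 0.66 (adjusted p = 0.0250). RPL34, RPS12 and RPS23 had, with RPL11, the highest mean CPM over the groups. Their levels ran from 2210 to 6469, 1401 to 5763 and 1782 to 4777 CPM over the libraries. None of these 3 was called in follicle organoids, interfollicular organoids or differentiation media, where their log2 changes lay between -0.29 and 0.53.

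Paralogues were compared with their main copies as a percentage of the counts of the pair. RPL22L1 made 2.87 to 11.92% of the pair with RPL22 in 22 libraries and 21.5% in the later interfollicular organoids, from 23 and 84 counts. RPS27L, a p53 target, made 32.8 to 59.7% of the pair with RPS27. RPL26L1 and RPL7L1 stayed under 10% of their pairs with RPL26 and RPL7. RPL3L, the copy of RPL3 known from skeletal and heart muscle, had 24 counts in all 23 libraries, of which 11 fell in the 6 tissue libraries. It had 0 counts in both interfollicular organoid libraries, which allows up to 6.32 CPM in the early and 13.5 CPM in the later, counting error only. RPL10L and RPL39L were not among the entries analysed here.

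Of the 7 main copies, RPL3 and RPL26 were called in the differentiation media, as given above. In the differentiation media RPL7, RPL10, RPL22, RPL39 and RPS27 had log2 changes of 0.51, 0.65, 0.14, 0.29 and 0.25, none called by edgeR. DESeq2's test called RPL7 and RPL10. In interfollicular organoids the changes were -0.80, -0.57, -0.17, -0.65 and -0.60, and RPL26 was at -1.08 (adjusted p = 0.0768, edgeR). These include the later library. RPL7 was at 1854 and 3016 CPM in the tissue, 1878 CPM early and 1049 CPM later. RPL26 was at 389.5 and 904.7 CPM in the tissue, 398.2 CPM early and 242.7 CPM later. For both, the early library lay inside the tissue range and the later one below it.

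Each member's share of the summed ribosomal protein counts shows how the members vary against each other. Over 76 members with at least 50 counts per library on average, the SD of the log2 share over the 23 libraries had a median of 0.35 and ran from 0.10 to 1.06. Within groups the median SD was 0.19, and between group means 0.35. RPL27 varied the most (SD 1.06, within groups 0.16), followed by RPL7L1 (0.74, within groups 0.70) and RPL4 (0.67, within groups 0.20). For RPL27 and RPL4 the spread thus lay between groups, and for RPL7L1, with 3 counts in its lowest library, also within them.

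The profile of shares was alike in most libraries. Across the 76 members, which are not independent, Pearson correlations of log2 shares lay between 0.91 and 0.99 among 16 tissue and expansion libraries, without the later interfollicular organoids. That library correlated with the 16 at 0.77 to 0.87. The 6 differentiation libraries correlated with each other at 0.96 to 0.99 and with the 16 at 0.83 to 0.95. In the later interfollicular library 24 of 76 members lay more than 1 log2 unit from the median of the 16, 7 above and 17 below. In the differentiation libraries this held for 4 to 11 members, and in the 16 for 0 to 5, the most in the first interfollicular epidermis library.

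**Figure D5:**
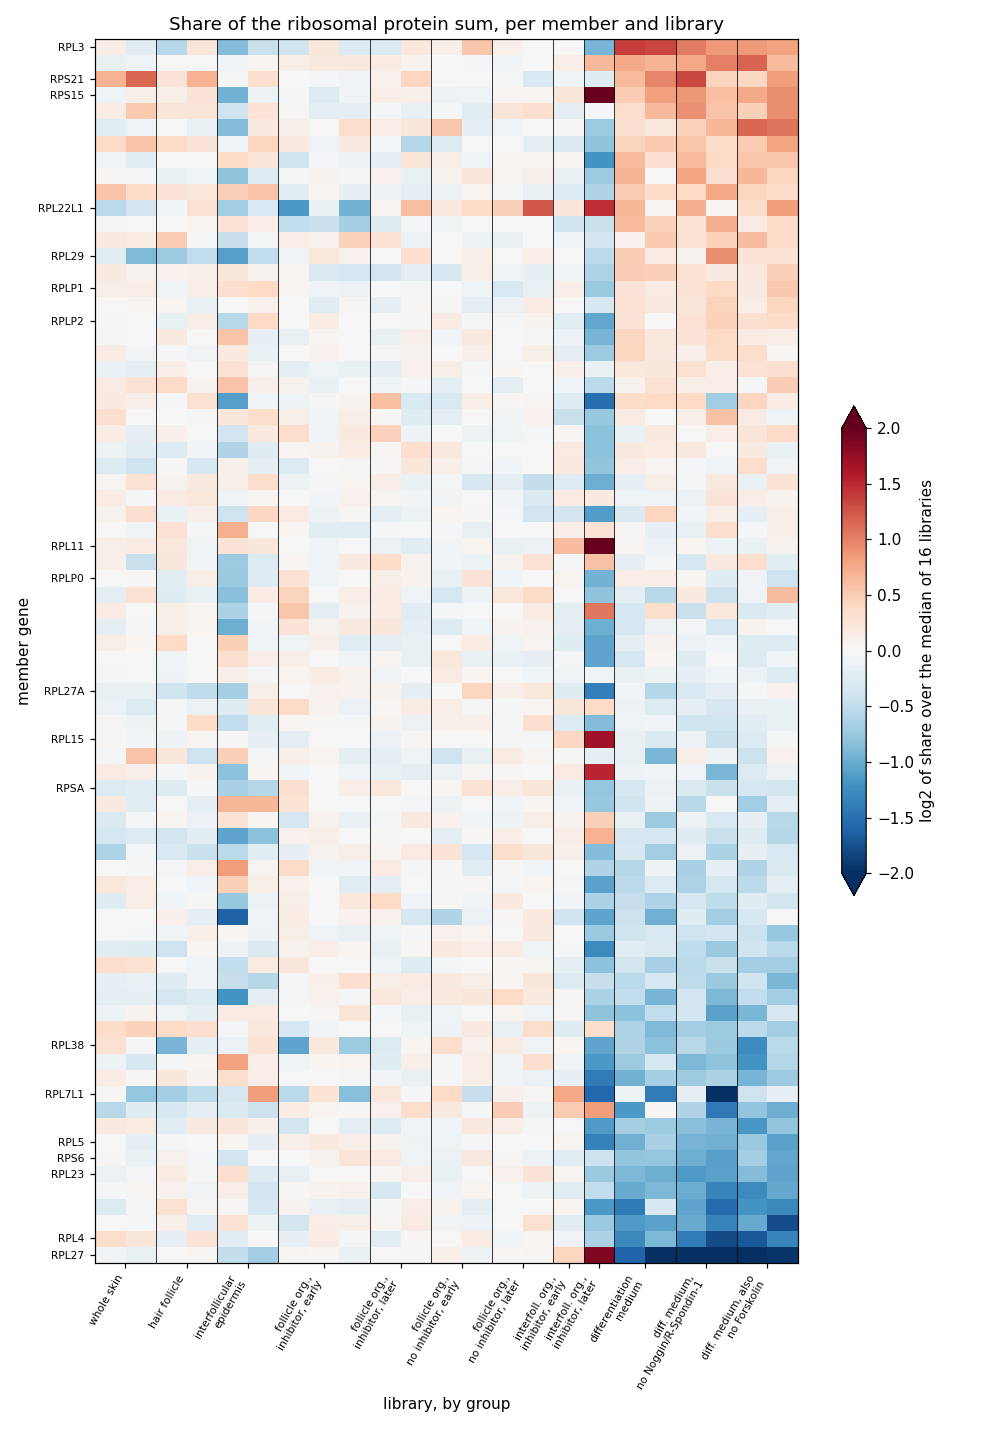
Log2 of each member's share of the ribosomal protein sum over its median in 16 tissue and expansion libraries (colour), for 76 members (rows, with names for some that the text describes) and 23 libraries (columns, by group). The later interfollicular organoid library and the 6 differentiation libraries, with RPL3 at the top and RPL27 at the bottom, depart from most others. The first interfollicular epidermis library departs nearly as much (SD over members 0.54, against 0.56 to 0.72 in the differentiation libraries).

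Other genes of translation and growth were taken from lists, none of which was tested as a set. Of all genes, 9.01% were called higher and 19.0% lower in follicle organoids, against 6.73 and 4.5% in interfollicular organoids. In the differentiation media these shares were 4.39 and 10.2%. Of 20 genes of translation elongation and other TOP transcripts, 3 were higher and 1 lower in follicle organoids than in follicles, with a list median of 0.36 against 0.00 for all genes. EEF2, the elongation factor that moves the ribosome along the message, was at 244.7 and 297.1 CPM in follicles. It was at 1784 to 2701 CPM in 6 organoid libraries, but at 339.6, 333.4 and 303.3 CPM in the other 3, which are the first early library with inhibitor, the second early and the second later library without it. The high and the low level thus occurred among replicates of the same group, and the log2 change of 2.47 ± 0.74 (adjusted p = 0.0160, edgeR) is a mean over both. The single fall was VIM, at -4.84, which is also a gene of fibroblasts. In interfollicular organoids 6 of the 20 were higher and 2 lower than in their tissue. EEF1A1, the factor that brings aminoacyl-tRNA, was at 2252 and 1472 CPM in the tissue, 5452 CPM early and 40438 CPM later (2.99 ± 0.39, adjusted p = 5.1e-05, edgeR). Without the later library 4 were higher and 2 lower.

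In the differentiation media 1 of these 20 was higher and 7 lower, with a list median of -0.30 against -0.14. PABPC1, the poly(A)-binding protein, fell from a mean of 807.0 to 238.6 CPM (-1.76 ± 0.28, adjusted p = 0.000339, edgeR). EEF1D, a subunit of the exchange factor for EEF1A1, rose from 661.6 to 1319 CPM (0.98 ± 0.30, adjusted p = 0.0318). BTF3, a factor that binds nascent chains at the ribosome, was at 19.1 and 19.0 CPM in expansion medium and was listed at 0 in 5 of the 6 differentiation libraries. The count for the list was 1 higher and 4 lower with the replicate block. Of 40 initiation factors 0 were higher and 10 lower, EIF4A1 at -1.63 ± 0.27 (adjusted p = 0.000397), and 0 and 7 with the block. In follicle organoids 6 initiation factors were higher and 1 lower than in follicles, and in interfollicular organoids 12 were higher and 0 lower, or 6 and 0 without the later library.

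Of 76 ribosome biogenesis genes, which make and modify ribosomal RNA and assemble the subunits, 19 were higher and 0 lower in follicle organoids than in follicles. The list median was 0.87, above the members' 0.26. NOP16, a nucleolar protein, rose by 1.25 ± 0.30 (adjusted p = 0.00285, edgeR) and WDR43 by 1.80 ± 0.42 (adjusted p = 0.00223). The count was 10 with DESeq2's size factors or library totals, and 4 without the first or without the second follicle library. In the differentiation media 0 were higher and 19 lower, with a median of -0.59 against the members' -0.17. SBDS, which helps to release the factor that keeps the subunits apart, fell from a mean of 67.2 to 8.66 CPM. With the replicate block 15 were lower, and without the first or the second expansion library 5 and 10.

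Mitochondrial ribosomal proteins serve the separate ribosome of mitochondria. Of 76, 10 were higher and 0 lower in follicle organoids, where 9.01% of all genes were higher and 19.0% lower. In the differentiation media 1 was higher and 17 lower, where 4.39% of all genes were higher and 10.2% lower. MRPS31 fell from a mean of 90.9 to 5.55 CPM. Of 17 tested genes of the MYC and growth control list, 2 were higher and 2 lower in follicle organoids. The falls were MYCN, at -5.25 ± 0.40 (adjusted p = 6.0e-09, edgeR), and DEPTOR, an inhibitor of mTOR, at -3.18 ± 0.33 (adjusted p = 1.3e-07). In the same list RPS6KA1 went the other way. It had 3 and 1 counts in follicles and 6 to 71 in the follicle organoids in expansion medium, not scaled for depth. MYC itself was listed at 0 in all 23 libraries, and whether its transcripts could be counted was not tested.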

How the data were processed

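The data are bulk CEL-seq2 libraries of dog tissue and organoids. The authors deposited estimated counts per gene, of which some hold a fraction, per the file contents, and the submitters' processing notes name BWA 0.6.2-r126 and CanFam3.1. Details of the annotation, the counting tool and molecular barcodes were not given in the sources used here. A fraction occurred in 68 of the 79 member entries in at least 1 library, and reads shared between near-identical copies make separate values uncertain. In a given library 50.6 to 67.1% of the members held a fraction, against 4.91 to 10.6% of all entries.

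Total counts per library were 86301 to 4822410. Counts were rounded. The 17 tissue and expansion files list 20448 entries and the 6 differentiation files 18113, with 17141 in both. Entries without a gene name (0.461 to 2.16% of counts) were left out. edgeR 4.0.16 (R 4.3.3) was run on all 23 libraries with a mean for each of 12 groups, the default filter (9888 genes, 9732 listed by both kinds of file), TMM scaling and the quasi-likelihood test, checked on simulated data. The residual degrees of freedom were 11. P-values were adjusted over all genes of a comparison. A mean of group means was used for pooled groups. Intervals and floors cover counting error only.

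The members, lists, rules and alternatives were chosen with earlier results of these data known. Named members are a fixed set (RPSA, RPS6, RPS27A, RPL5, RPL11, RPLP0 to RPLP2, and the paralogues with their main copies), the 4 with the highest mean CPM, the 3 with the largest SD of share, and in each comparison up to 4 called rises and 4 called falls with at least 20 CPM. From each other list up to 2 called genes in each direction with the smallest p could be named. Some members that the rule names are not reported here. Over 2630 genes, same-numbered libraries correlated at 0.55 to 0.70 between differentiation groups and at 0.11 to 0.22 between differentiation and expansion groups. The replicate number was taken to pair libraries in the comparison of differentiation media with expansion medium. These correlations are 6 distinct values, 1 for each pair of groups, because the deviations of 2 libraries mirror each other. The comparisons for the loss of Noggin and R-Spondin-1 and of Forskolin are given from the fit without pairing. Their groups nevertheless correlated at 0.70 and 0.59. The labels do not say what a number marks. Alternatives were DESeq2 1.42.0, other scalings, no filter, the replicate block, the compared groups alone, shared entries alone, and leaving out each library.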

Additional observations from a re-analysis of the deposited data

How the results depend on the processing

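The cause of the changes below was not tested. Called members in follicle organoids against follicles numbered 3, and were 0 with DESeq2's size factors, 0 with library totals, 1 with no filter, 1 with the replicate block, 5 with only the groups compared, and 0 to 3 when a library was left out. In interfollicular organoids against their tissue there were 8, and 20 with library totals, 13 by DESeq2's test, 4 with only the groups compared and 0 to 9 when a library was left out. Interfollicular epidermis against whole skin gave 0, and 1 by DESeq2's test. Interfollicular against follicle organoids gave 5, and 2 with no filter, 2 with the replicate block and 0 to 7 with a library left out. Differentiation media gave 12, and 19 by DESeq2's test, 7 with the replicate block, 2 with only the groups compared, 6 with the block in those groups alone (added after seeing the data), and 2 to 16 with a library left out. The replicate block changed no other count by over 1.5 times. Same-numbered libraries correlated at -0.09 to 0.24 between follicle organoids and follicles, and at -0.36 to 0.19 between groups of follicle organoids in expansion medium. The number was not taken as a pairing there, although the first range covers the 0.11 to 0.22 between differentiation and expansion groups.

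The log2 ratio of the member sum in follicle organoids over follicles was 0.07, and -0.10 to 0.27 with a library left out. For follicles over whole skin it was -0.04, and -0.24 to 0.13. For the loss of Forskolin it was -0.44, and -0.83 to -0.13. With only the 11 members that never hold a fraction (added after seeing the data) it was -0.65 in place of -0.47 for interfollicular organoids over their tissue, and -0.29 in place of -0.02 for interfollicular over follicle organoids. Among named members, 1236 alternative values kept their side of the threshold and direction, 88 lost the call, 16 gained it, and 1 changed sign: RPS15 between interfollicular and follicle organoids, at -0.0050 without the later and 2.13 without the early interfollicular library (1.05 with both). Depth limits the shallow libraries most, where members such as RPL36 had 2 counts.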
